A study of Mus musculus with 9 samples.

Results

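The genes described here are 34 mouse genes of Kupffer cells, the resident macrophages of the liver, and of macrophages in general: 10 resident Kupffer genes and 24 genes shared by most myeloid cells. They were read from the probe sets of a 3' expression array that are annotated to exactly 1 gene, that gene being one of the 34. In all, 33 of them were measured, by 46 probe sets, out of 12393 genes with such a probe set. Timd4, a resident Kupffer gene, was not analysed here. The 6 genes with several probe sets were C1qb, Csf1r, Fcgr2b, Laptm5, Msr1 and Tlr4, and for these the probe set with the highest mean log2 value over all arrays stands for the gene. Of the 33, 32 genes passed the filter on low values, and Itgam, an integrin chain, did not.

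Kupffer cells lie in the liver sinusoids, where they remove bacteria, immune complexes and aged red cells from the portal blood. They recognise these with complement, scavenger and Fc receptors, sense endotoxin through CD14 and TLR4, and depend on the colony-stimulating factor 1 receptor for their survival. Genes such as Clec4f, Vsig4 and Cd5l mark them among macrophages, whereas Cd68, Csf1r and Ptprc are also active in monocytes and other leukocytes. Whole liver is mostly hepatocytes by mass, so the genes below report on a minor cell population. In such bulk RNA, fewer cells of a type and less RNA per cell cannot be told apart.

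Liver RNA was measured on 9 arrays in 3 groups of 3 samples. NT-Co are livers of mice without tumour given vehicle. T-Co are livers of mice with an orthotopic xenograft of TK-4, a human colon cancer, placed in the cecal wall, and given vehicle. T-TSU are livers of such mice given TSU68, an oral inhibitor of the VEGF, PDGF and FGF receptor tyrosine kinases, at 400 mg/kg per day, given in 2 doses a day. Dosing began 7 days after implantation and lasted 1 week. Mice with tumours were of the BALB/c nu/nu strain, male and aged 6 weeks at implantation. This athymic strain lacks mature T cells and keeps macrophages, B cells and NK cells. For the mice without tumour, strain, sex and age are not given separately and no operation is described, so effects of tumour and implantation cannot be told apart. Livers of mice without tumour given TSU68 were not analysed here. The titles number the samples, as replicates 8, 10 and 11 for NT-Co, 9, 10 and 13 for T-Co and 2, 12 and 14 for T-TSU, and values below follow that order. The labels do not say that each sample is a separate animal, so p-values measure only the spread between these samples, which may be technical.

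The deposited values are linear intensities, the brightness of a probe set. They order the samples for a probe set. Levels of different probe sets were set against each other only for the filter and to choose the probe set of a gene. Sums over markers, given below, weigh the brightest probe sets most. Differences were computed on log2(intensity + 7.92) and are given ± SE, with limma's p-value adjusted by Benjamini-Hochberg over all 15838 probe sets tested; a gene is called where this is under 0.05. The differences understate those of dim genes. Array medians ranged from 108 to 120.1, and the mean correlation of an array with its group was 0.947 to 0.964. On the second principal component T-Co replicate 13 lay apart, at 48.1 against -29.9 to 17.5 for the other arrays. As a guide to RNA quality, the signal of the 3' over the 5' probe set of beta-actin was 2.72 ± 0.44 (mean ± SD, n = 3) for NT-Co, 1.98 ± 0.11 for T-Co and 2.02 ± 0.20 for T-TSU. The same ratio for Gapdh did not differ in this way, at 0.764 ± 0.031 for NT-Co, 0.765 ± 0.039 for T-Co and 0.767 ± 0.075 for T-TSU. All 10 measured hepatocyte markers of the 12 listed were above 0 on every array, as were the 9 resident Kupffer genes.

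A pair of arrays marked the ends of the range of the macrophage genes. T-Co replicate 13 was the highest of the 9 arrays in 8 of 9 resident Kupffer genes and 11 of 24 general myeloid genes, while it was the highest in 14.8% of all genes. T-TSU replicate 2 was the lowest in 8 of 9 and 15 of 24, against 11.4% of all genes. The spread within a group was also wider than usual for these genes. The range over the 3 arrays of a group, on the log2 scale, had a median over the 9 resident genes of 0.92 for NT-Co, 0.87 for T-Co and 1.32 for T-TSU, where the medians over all genes tested were 0.39, 0.51 and 0.44. The main counts and medians of these genes below are therefore also given without these arrays.

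**Figure D1:**
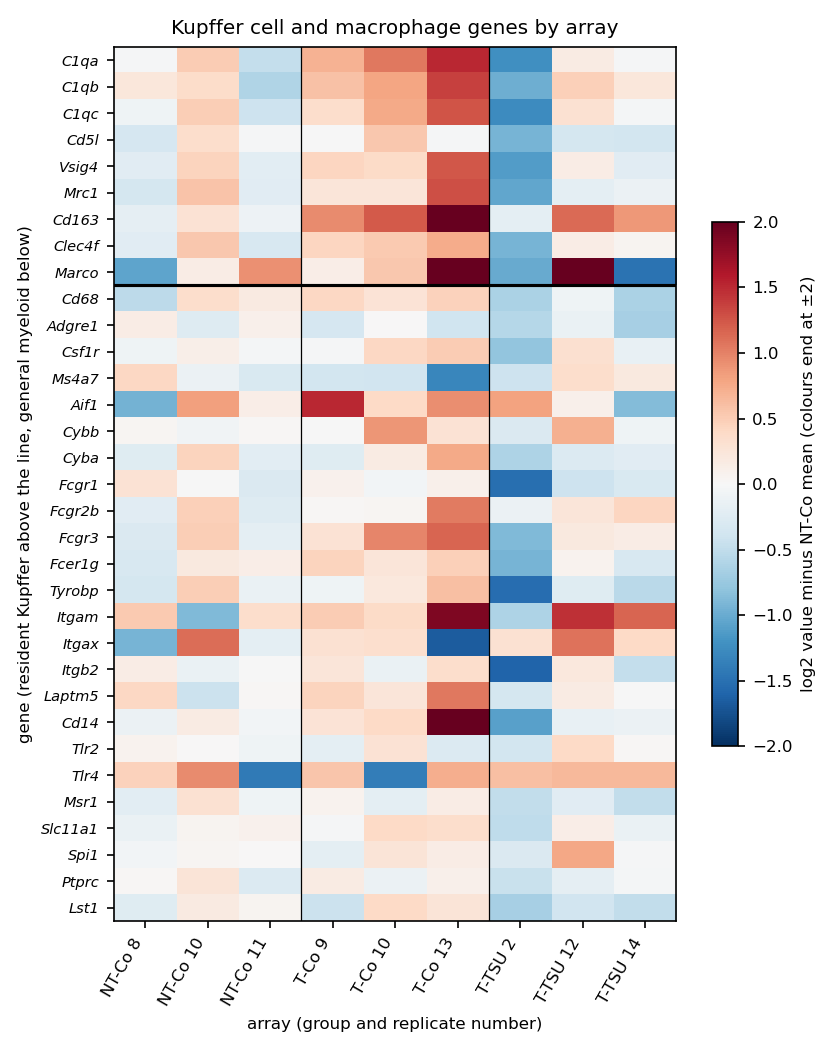
Heat map of the 33 measured genes (rows) on the 9 arrays (columns), as log2 value minus the mean of the NT-Co arrays, with colours ending at ±2; the line parts resident Kupffer from general myeloid genes. T-Co replicate 13 is the darkest red column, and T-TSU replicate 2 the bluest, being the lowest array in 8 of 9 resident and 15 of 24 myeloid genes.

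Setting T-Co against NT-Co asks how the macrophage genes of the liver differ when a tumour grows in another organ. Cd163, the scavenger receptor for haemoglobin-haptoglobin complexes, rose 2.77-fold in the livers of tumour-bearing mice and was the only one of the 32 tested genes to be called. That is 3.12% of them, where 3.56% of all genes were called higher; 0 were called lower by limma, against 2.76% of all genes. At an unadjusted p under 0.05, 4 genes were higher (C1qa, C1qb, Cd163 and Fcgr3; 10.6% of all genes) and 0 lower (11.3% of all genes). All 9 resident Kupffer genes had a difference above 0, with a median of 0.79, and so did 19 of 24 general myeloid genes, with a median of 0.23. Over all 12393 genes 49.4% lay above 0 and the median was -0.01. Most endothelial and hepatocyte markers also lay above 0, as given below. The T-Co arrays lay wholly above the NT-Co arrays in 5 of 33 genes, C1qa, C1qb, Cd163, Fcer1g and Cd14, and wholly below them in Ms4a7; either happened in 11.6% of all genes. Without T-Co replicate 13, 0 genes were called, 2 were higher at an unadjusted p under 0.05 (C1qa and Cd163; 9.07% of all genes), and without T-TSU replicate 2, which enters only through the shared variance, these counts were 2 and 8 (3.41% and 10.4% of all genes). Without both they were 1 and 3 (2.54% and 9.02%). The same 5 genes lay wholly above and Ms4a7 wholly below NT-Co in each case, where 16.3% and 16.1% of all genes did so without T-Co replicate 13. Leaving out an array cannot make separate groups overlap, so this outcome was fixed in advance and is no added support. Without T-Co replicate 13 the medians were 0.48 for the resident and 0.06 for the myeloid genes, and the myeloid median was 0.36 without either NT-Co replicate 10 or T-Co replicate 9.

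Setting T-TSU against T-Co asks how tumour-bearing mice given the drug differed from those given vehicle, and 0 of the 32 genes were called by limma, higher or lower, where 0.0434% and 0.0108% of all genes were. At an unadjusted p under 0.05, 17 of 32 genes (53.1%) were lower with TSU68, among them 8 of 9 resident Kupffer genes, where 5.75% of all genes were lower; 0 were higher, against 5.71% of all genes. The arrays of T-TSU lay wholly below those of T-Co in 15 of 33 genes, 7 of 9 resident and 8 of 24 myeloid, where this held for 7.03% of all genes, and wholly above them in 0 genes, against 6.6% of all genes. All 9 resident genes lay below 0, with a median difference of -1.04, and 19 of 24 myeloid genes, with a median of -0.46; the median over all genes was 0. The count of 17 was 11 without T-Co replicate 13, 9 without T-TSU replicate 2 and 2 (C1qa and Cd5l) without both, when 4.07%, 4.21% and 3.44% of all genes were lower. Both arrays were picked as the extremes of these same genes, so leaving them out tends to shrink this difference, and fewer arrays remain. With both left out, 16 of 33 genes lay wholly below T-Co and 5 wholly above, against 17.2% and 16.3% of all genes. The 16 held Aif1 and the 15 of all arrays, which could not drop out since fewer arrays cannot create overlap. The 17 differences ran from -1.45 to -0.50 with all arrays and from -0.80 to -0.09 without both. Without both arrays the medians were -0.40 for the resident and -0.20 for the myeloid genes; without T-TSU replicate 2 alone they were -0.67 and -0.26.

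T-TSU against NT-Co compares treated tumour-bearing mice with mice without tumour, and again 0 genes were called by limma, higher or lower, where 2.06% and 1.55% of all genes were. At an unadjusted p under 0.05, 4 genes were lower in T-TSU (Cd5l, Adgre1, Tyrobp and Lst1; 8.52% of all genes) and 0 higher (7.98% of all genes). The medians were -0.33 over the 9 resident and -0.19 over the 24 myeloid genes, and 23 of the 33 genes lay below 0. The T-TSU arrays lay wholly below the NT-Co arrays in 5 of 33 genes, Cd5l, Fcgr1, Cd14, Msr1 and Lst1, as in 10.5% of all genes, and wholly above them in 0, against 10.2%. Without T-TSU replicate 2, 0 genes were lower at an unadjusted p under 0.05 (7.95% of all genes), 1 was higher (Cd163; 7.14%) and 15 of 33 lay below 0. The same 5 genes lay wholly below NT-Co, as they had to with fewer arrays, against 16.1% of all genes. Cd163 and Itgam lay wholly above, against 15.9%. The resident median was then 0.10, of opposite sign, and the myeloid median -0.05, and without NT-Co replicate 10 the resident median was -0.08. Other left-out arrays moved these medians too: without T-TSU replicate 12 they were -0.63 and -0.34, and without NT-Co replicate 11 the resident median was -0.51. The 3 comparisons share their arrays in pairs, so the differences of a gene are given side by side and are not independent.

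**Figure D2:**
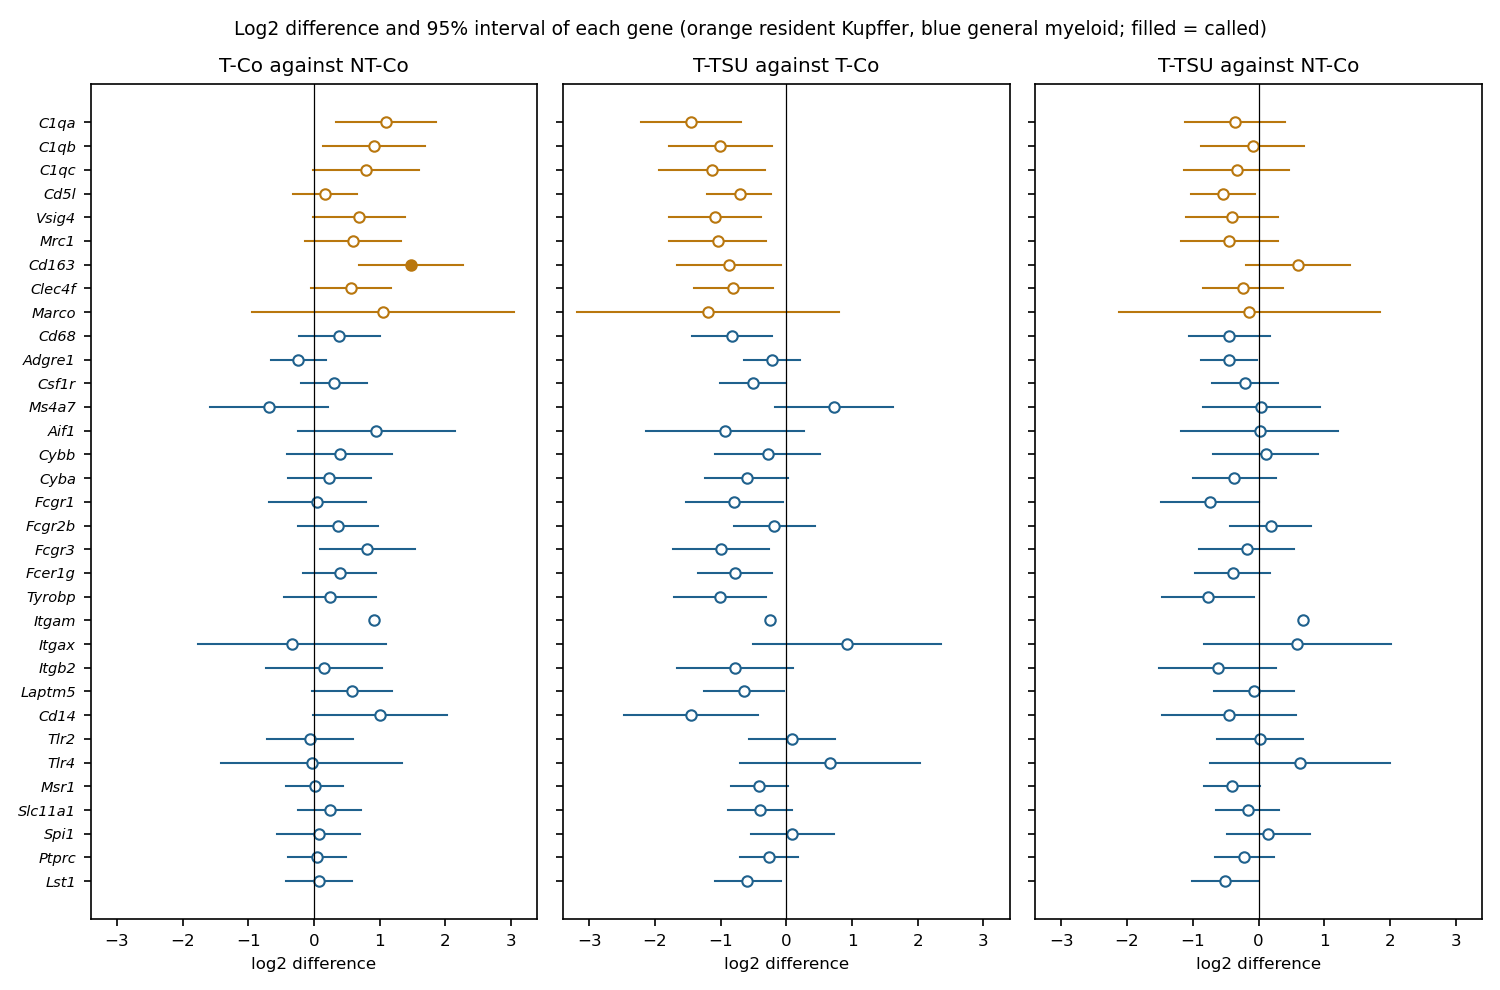
Log2 difference with its 95% interval for each of the 33 genes in the 3 comparisons, from the brightest probe set; Itgam was not tested and has no interval. The filled point, Cd163 in T-Co against NT-Co at 1.47, is the only call, and all 9 resident genes lie to the right of 0 in the left panel and to the left of it in the middle one.

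The 3 chains of C1q, the recognition molecule of the classical complement pathway, are made largely by macrophages. C1qa had intensities of 681, 984 and 497 on the NT-Co arrays, 1132, 1445 and 1992 on the T-Co arrays and 290.3, 782 and 684 on the T-TSU arrays. Every T-Co array was above every array of the other groups, and T-TSU replicate 2 was the lowest of all. Its difference was 1.09 ± 0.35 (adjusted p = 0.0871) for T-Co against NT-Co, -1.45 ± 0.35 (adjusted p = 0.181) for T-TSU against T-Co and -0.36 ± 0.35 (adjusted p = 0.692) for T-TSU against NT-Co. Without T-TSU replicate 2, C1qa passed the threshold in T-Co against NT-Co at 1.09 (limma adjusted p = 0.0292), and it also passed when only these 2 groups entered the fit (adjusted p = 0.0466).

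C1qb, the second chain, had intensities of 647, 719 and 363 on the NT-Co arrays, 834, 959 and 1439 on the T-Co arrays and 277, 771 and 648 on the T-TSU arrays, and again the T-Co arrays lay above all others. The differences were 0.91 ± 0.36 (adjusted p = 0.16) for T-Co against NT-Co and -1.01 ± 0.36 (adjusted p = 0.353) for T-TSU against T-Co. Its other 2 probe sets gave -0.01 and 0.23 for T-Co against NT-Co, so the probe sets disagreed on the size of that difference, while for T-TSU against T-Co all 3 lay between -1.01 and -0.60. C1qc, the third chain, measured 551, 827 and 435 on the NT-Co arrays, 748, 996 and 1409 on the T-Co arrays and 239.9, 721 and 565 on the T-TSU arrays. Here T-Co overlapped with NT-Co and lay above T-TSU, with differences of 0.79 ± 0.37 and -1.13 ± 0.37 (adjusted p = 0.319).

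**Figure D3:**
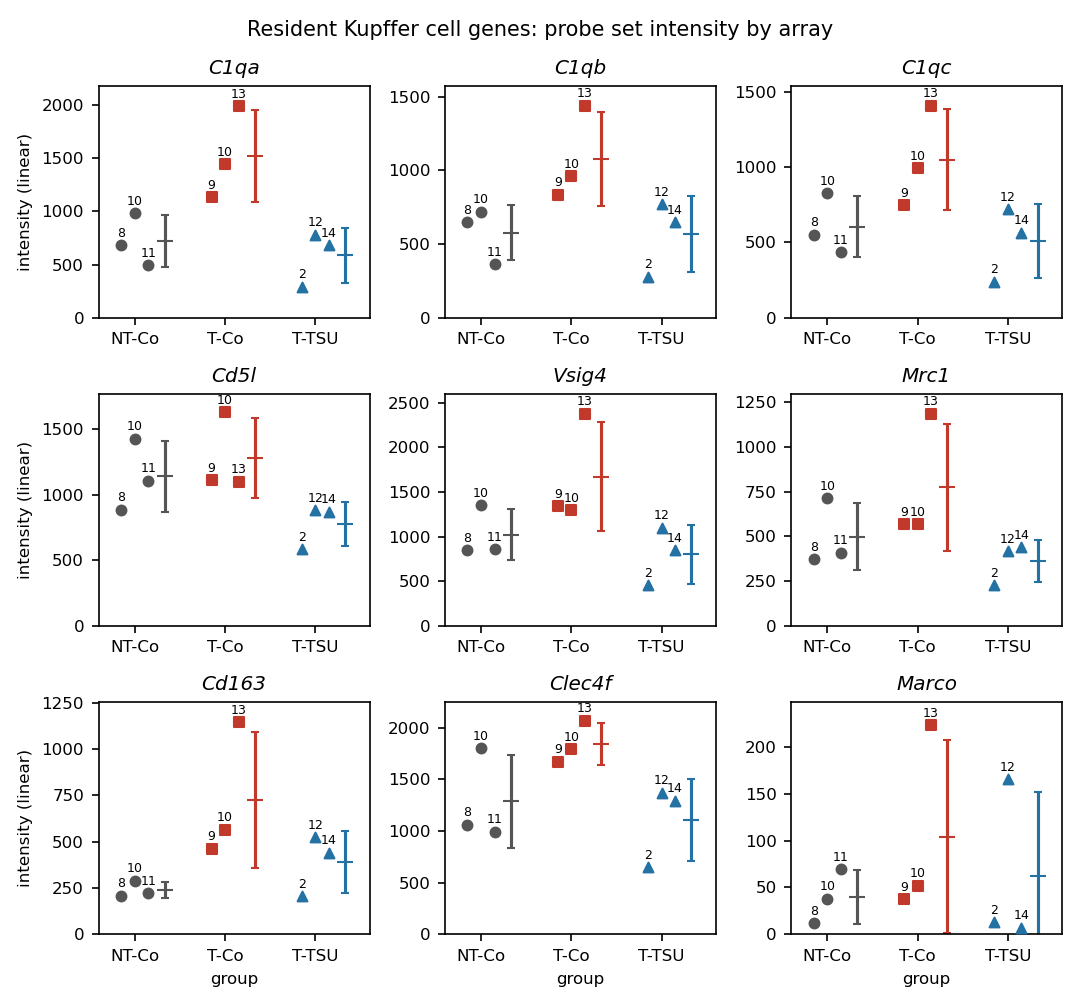
Intensities of the 9 measured resident Kupffer genes by group, each point an array with its replicate number, and beside it the mean ± SD (n = 3) on a linear axis starting at 0. T-Co replicate 13 is the highest array in 8 of the 9 genes, and the T-Co arrays of Cd163, from 463 upward, all lie above the NT-Co arrays, which end at 289.6.

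Among the scavenger receptors, Cd163 was the only call. It measured 207, 289.6 and 221 on the NT-Co arrays, 463, 565 and 1146 on the T-Co arrays and 206, 526 and 440.1 on the T-TSU arrays. The NT-Co arrays lay close together and below every T-Co array, while the T-TSU arrays spread from the NT-Co level to that of T-Co. Cd163 rose in T-Co by 1.47 ± 0.36 (adjusted p = 0.032), with a 95% interval of 0.68 to 2.26. The difference was -0.87 ± 0.36 (adjusted p = 0.423) for T-TSU against T-Co and 0.60 ± 0.36 (adjusted p = 0.46) for T-TSU against NT-Co. Its call was lost without NT-Co replicate 8, 10 or 11 (adjusted p = 0.112, 0.0514 and 0.11), without T-Co replicate 13 (1.09, adjusted p = 0.0925) and without limma's intensity trend (adjusted p = 0.0925). With T-Co replicate 13 and T-TSU replicate 2 both left out it passed, at 1.09 (adjusted p = 0.0143), and so did T-TSU against NT-Co, at 1.0 (adjusted p = 0.0231).

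Mrc1, the macrophage mannose receptor, which sinusoidal endothelial cells also carry, measured 373, 714 and 409 on the NT-Co arrays, 569, 567 and 1186 on the T-Co arrays and 229, 417 and 441 on the T-TSU arrays. T-Co replicate 13 stood far above the other T-Co arrays, which lay within the range of NT-Co. The difference was -1.04 ± 0.34 (adjusted p = 0.316) for T-TSU against T-Co, whose arrays did not overlap, and 0.60 ± 0.34 for T-Co against NT-Co. Marco, a scavenger receptor for bacteria and particles, ranged over 11.8 to 69.5 for NT-Co, 37.3 to 223 for T-Co and 6.83 to 166 for T-TSU, and 3 of its arrays lay below the filter intensity of 36.2. Its groups overlapped in every comparison, and its intervals were the widest of the resident genes. Msr1, the class A scavenger receptor, measured 239, 347 and 262 on the NT-Co arrays, 292, 244 and 310.4 on the T-Co arrays and 197, 238 and 197 on the T-TSU arrays. All T-TSU arrays were below the NT-Co and T-Co arrays, with differences of -0.40 ± 0.20 (adjusted p = 0.339) and -0.41 ± 0.20 (adjusted p = 0.5). Its other 3 probe sets also lay below 0 in T-TSU against T-Co, all 4 being between -0.74 and -0.39. In T-TSU against NT-Co the probe sets of Msr1 disagreed, with 2 above 0 and 2 below, from -0.90 to 0.59. For T-Co against NT-Co the brightest gave 0.01, and the 4 ran from -0.17 to 1.33. The highest, 1.33 ± 0.48 (adjusted p = 0.125), had T-Co arrays wholly above the NT-Co arrays.

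Cd5l encodes AIM, a secreted protein that macrophages release into the blood. Its intensities were 886, 1427 and 1105 on the NT-Co arrays, 1109, 1629 and 1099.8 on the T-Co arrays and 584, 879 and 869 on the T-TSU arrays. T-Co overlapped with NT-Co, and all T-TSU arrays were below both. The difference was -0.71 ± 0.22 (adjusted p = 0.304) for T-TSU against T-Co, -0.54 ± 0.22 (adjusted p = 0.238) for T-TSU against NT-Co, and it was 0.17 ± 0.22 for T-Co against NT-Co.

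Vsig4, the complement receptor that captures C3-coated bacteria from the blood, measured 850.0, 1354 and 858 on the NT-Co arrays, 1340.5, 1294 and 2373 on the T-Co arrays and 453, 1100.5 and 849 on the T-TSU arrays. T-TSU arrays were below all T-Co arrays, and T-Co replicate 13 was again the highest. Its difference was -1.09 ± 0.32 (adjusted p = 0.258) for T-TSU against T-Co and 0.68 ± 0.32 for T-Co against NT-Co. Clec4f, a galactose-binding lectin specific to Kupffer cells in the mouse, measured 1062, 1805 and 994 on the NT-Co arrays, 1674, 1793 and 2068 on the T-Co arrays and 647, 1372 and 1294 on the T-TSU arrays. The T-Co arrays lay above all T-TSU arrays and overlapped with NT-Co, with differences of -0.81 ± 0.28 (adjusted p = 0.337) and 0.56 ± 0.28.

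PU.1, the product of Spi1, is the transcription factor that opens many macrophage genes. The letters GAGGAA, a form of the site it binds, are called the core here. The 250 bases before the start site are shown for the 3 resident genes with the smallest p in any comparison among those in the RefSeq promoter table (GRCm38.p6), in which C1qa was not found. Capitals mark the core on either strand (TTCCTC on the reverse strand). They lie at chr6:124304401-124304650 on the plus strand for Cd163, chrX:96293439-96293688 on the minus strand for Vsig4 and chr3:87357631-87357880 on the plus strand for Cd5l.
Cd163: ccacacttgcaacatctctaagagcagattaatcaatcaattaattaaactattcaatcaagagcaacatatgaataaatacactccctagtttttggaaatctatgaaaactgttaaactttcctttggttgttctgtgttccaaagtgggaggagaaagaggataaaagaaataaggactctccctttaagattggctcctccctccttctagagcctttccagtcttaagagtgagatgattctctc
Vsig4: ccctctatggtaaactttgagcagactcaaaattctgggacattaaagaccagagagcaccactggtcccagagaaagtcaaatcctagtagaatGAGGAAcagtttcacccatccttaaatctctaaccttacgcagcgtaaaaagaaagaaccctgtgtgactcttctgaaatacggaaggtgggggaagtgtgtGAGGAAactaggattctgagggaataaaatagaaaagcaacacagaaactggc
Cd5l: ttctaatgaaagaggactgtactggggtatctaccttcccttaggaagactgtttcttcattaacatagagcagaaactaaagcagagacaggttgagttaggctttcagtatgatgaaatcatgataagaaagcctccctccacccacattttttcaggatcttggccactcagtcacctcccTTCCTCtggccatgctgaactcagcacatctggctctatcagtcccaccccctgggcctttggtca

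The window of Vsig4 held the core at 2 positions, beginning at -155 and -53 from the start site, that of Cd5l held its reverse at -66, and that of Cd163 held 0 matches of these 6 letters. Among the genes described here, 24 were found in the promoter table, with 27 windows, of which 15 (55.6%) held the core. The share was 6 of 9 windows (66.7%) for resident Kupffer genes, 9 of 18 (50%) for general myeloid genes and 7639 of 32851 (23.3%) for all promoters in the table. A match is a string of letters and was not tested as a binding site, and other forms of the site were not counted.

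Csf1r, the receptor for the macrophage growth factors CSF1 and IL-34, measured 3174, 3652 and 3271 on the NT-Co arrays, 3299, 4485 and 4793 on the T-Co arrays and 1947, 4186 and 3040.0 on the T-TSU arrays. T-TSU replicate 2 was the lowest array and the groups overlapped. The difference was -0.50 ± 0.23 (adjusted p = 0.475) for T-TSU against T-Co, and all 3 probe sets of the gene lay between -0.82 and -0.50 there; for T-Co against NT-Co they lay between 0.30 and 0.49. The transcription factor gene Spi1 itself ranged over 111 to 119 for NT-Co, 99.5 to 139 for T-Co and 92.4 to 204 for T-TSU, with a difference of 0.07 for T-Co against NT-Co, of 0.09 for T-TSU against T-Co and of 0.15 for T-TSU against NT-Co. Its highest array was T-TSU replicate 12, and its groups overlapped.

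Of the broad macrophage markers, Cd68, a lysosomal glycoprotein, measured 81.2, 154 and 136 on the NT-Co arrays, 162, 146 and 168 on the T-Co arrays and 74.7, 112 and 74.8 on the T-TSU arrays. The T-Co arrays were closely spaced and above all T-TSU arrays, with a difference of -0.83 ± 0.28 (adjusted p = 0.332); for T-Co against NT-Co it was 0.38 ± 0.28. Adgre1, which encodes the F4/80 antigen, measured 566, 427 and 548 on the NT-Co arrays, 404, 513 and 387 on the T-Co arrays and 342, 465 and 320.1 on the T-TSU arrays. Its groups overlapped, and the difference was -0.45 ± 0.19 (adjusted p = 0.262) for T-TSU against NT-Co and -0.24 ± 0.19 for T-Co against NT-Co, one of 5 genes below 0 there. Ms4a7, a membrane protein of tissue macrophages, measured 92.0, 61.3 and 53.0 on the NT-Co arrays, 50.4, 49.8 and 22.4 on the T-Co arrays and 48.2, 87.7 and 77.8 on the T-TSU arrays. All T-Co arrays were below the NT-Co arrays, the reverse of the other genes whose arrays did not overlap, with a difference of -0.68 ± 0.41 (adjusted p = 0.37). Aif1, the actin-binding protein IBA1, ranged over 18.6 to 82.4 for NT-Co, 59.7 to 139 for T-Co and 20.4 to 82.1 for T-TSU and overlapped between the groups.

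The Fc receptors take up immune complexes. Fcgr3, a low-affinity activating receptor for IgG, measured 149.6, 261 and 159.6 on the NT-Co arrays, 228, 372 and 421 on the T-Co arrays and 96.1, 213 and 204 on the T-TSU arrays. The T-Co arrays lay above all T-TSU arrays, and T-Co replicate 9 fell within the NT-Co range. The difference was 0.81 ± 0.33 (adjusted p = 0.175) for T-Co against NT-Co and -0.99 ± 0.33 (adjusted p = 0.325) for T-TSU against T-Co. Fcgr1, the high-affinity IgG receptor, measured 135, 109 and 87.8 on the NT-Co arrays, 117, 105 and 118 on the T-Co arrays and 33.4, 80.2 and 86.5 on the T-TSU arrays. All T-TSU arrays were below the arrays of both other groups, which overlapped. Its difference was -0.79 ± 0.34 (adjusted p = 0.442) for T-TSU against T-Co and -0.74 ± 0.34 (adjusted p = 0.297) for T-TSU against NT-Co. Fcgr2b, the inhibitory IgG receptor, which liver endothelial cells also carry, ranged over 463 to 769 for NT-Co, 561 to 1142 for T-Co and 510.0 to 745 for T-TSU with overlapping groups. Its 4 probe sets lay between 0.16 and 0.71 for T-Co against NT-Co and between -0.62 and -0.12 for T-TSU against T-Co. Fcgr2b and Fcgr3 are close relatives, and whether their probe sets share signal was not tested.

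Fcer1g and Tyrobp encode the adaptors that carry the activating ITAM motif for Fc receptors and for receptors such as TREM2. Fcer1g measured 154, 222 and 212 on the NT-Co arrays, 266, 230.5 and 274 on the T-Co arrays and 98.2, 204 and 153 on the T-TSU arrays. The T-Co arrays were above all arrays of both other groups. The differences were 0.39 ± 0.26 (adjusted p = 0.425) for T-Co against NT-Co and -0.78 ± 0.26 (adjusted p = 0.324) for T-TSU against T-Co. Tyrobp, the gene of DAP12, measured 294, 533 and 345 on the NT-Co arrays, 358, 437 and 578 on the T-Co arrays and 126, 317 and 259 on the T-TSU arrays. All T-TSU arrays were below all T-Co arrays, and T-TSU replicate 2 was the lowest by far. Its difference was -1.01 ± 0.32 (adjusted p = 0.313) for T-TSU against T-Co, -0.77 ± 0.32 (adjusted p = 0.247) for T-TSU against NT-Co and 0.24 ± 0.32 for T-Co against NT-Co.

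**Figure D4:**
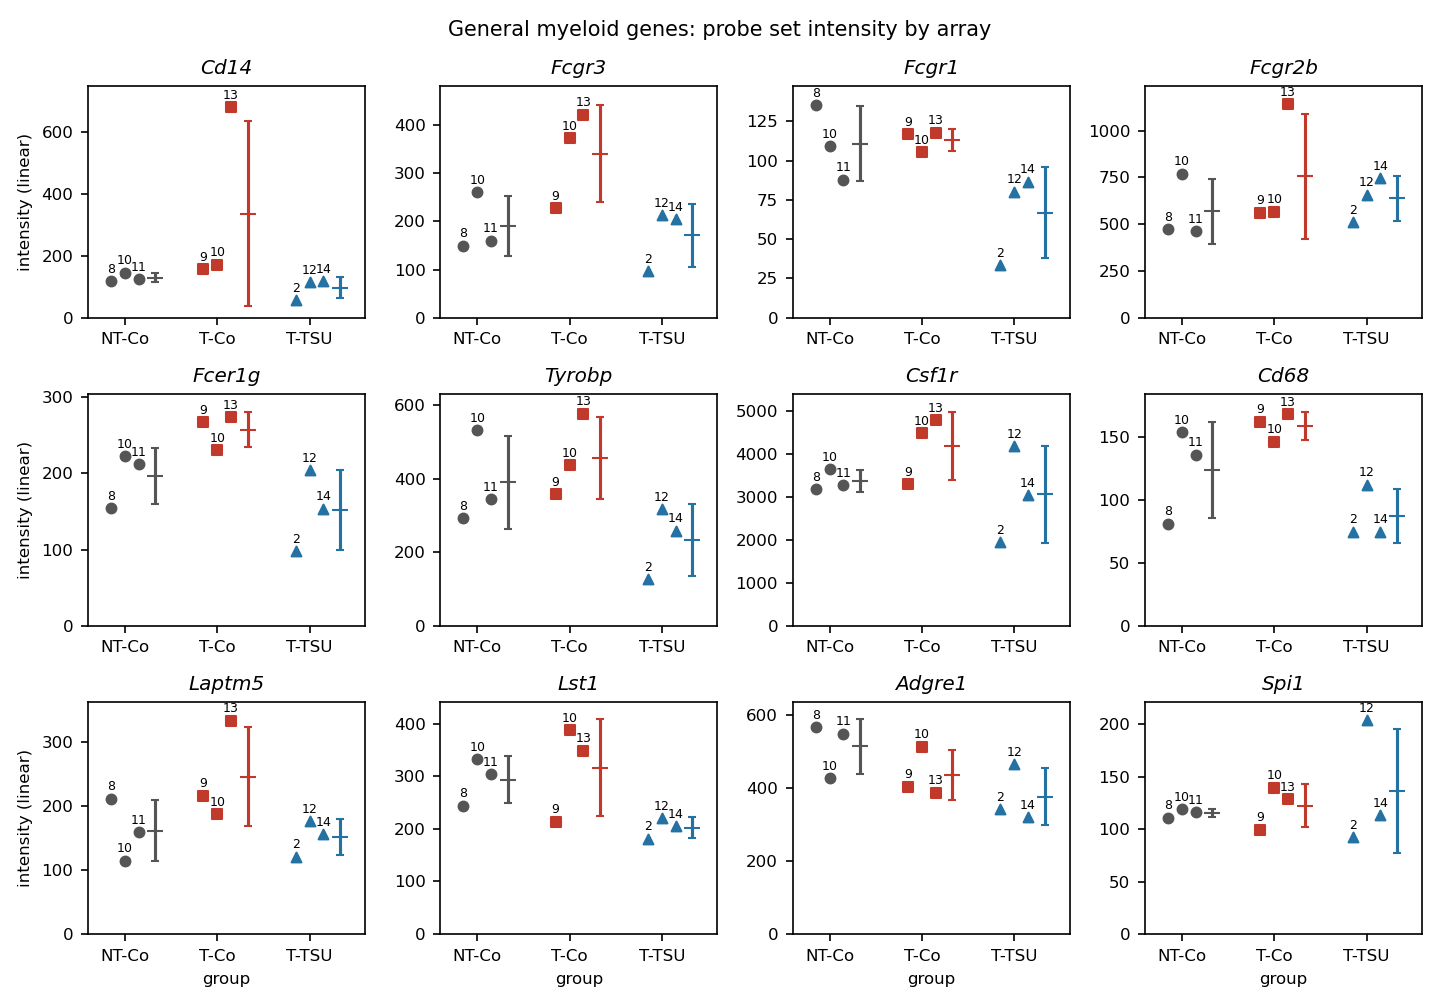
Intensities of 12 general myeloid genes by group, drawn as for the resident genes: each point an array with its replicate number, beside the mean ± SD (n = 3), on linear axes starting at 0. Cd14, Fcgr3, Fcgr1, Fcer1g, Tyrobp, Cd68 and Laptm5 separate T-TSU from T-Co, while the other genes drawn overlap. The Cd14 mean of T-Co, 337 ± 299, rests on replicate 13 at 681.

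Cd14, the co-receptor that hands endotoxin to TLR4, measured 118, 145 and 124 on the NT-Co arrays, 157, 172 and 681 on the T-Co arrays and 56.5, 116 and 118 on the T-TSU arrays. The 3 groups did not overlap, with T-TSU lowest and T-Co highest, yet T-Co replicate 13 was far above the other arrays, and the gap between the remaining arrays was small. The difference was 1.0 ± 0.47 (adjusted p = 0.232) for T-Co against NT-Co, -1.45 ± 0.47 (adjusted p = 0.315) for T-TSU against T-Co and -0.45 ± 0.47 (adjusted p = 0.717) for T-TSU against NT-Co. Without T-Co replicate 13 the first was 0.33 and the second -0.78. The endotoxin receptor gene Tlr4 ranged over 17.8 to 123 for NT-Co, 18.2 to 105 for T-Co and 95.2 to 99.2 for T-TSU, and its 2 probe sets differed in sign for T-TSU against T-Co, at -0.67 and 0.67. Tlr2, the receptor for bacterial lipoproteins, ranged over 80.6 to 90.7 for NT-Co, 69.5 to 106 for T-Co and 65.0 to 115 for T-TSU, with differences of -0.06, 0.08 and 0.02 in the same order of comparisons as for Spi1.

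Laptm5, a lysosomal membrane protein of leukocytes, measured 211, 115 and 159 on the NT-Co arrays, 216, 188 and 333 on the T-Co arrays and 121, 176 and 156 on the T-TSU arrays. T-TSU arrays were below all T-Co arrays, with a difference of -0.65 ± 0.28 (adjusted p = 0.436), and T-Co against NT-Co gave 0.58 ± 0.28. A second, less bright probe set of Laptm5 measured 128, 87.1 and 89.5 on the NT-Co arrays, 175, 199.7 and 333 on the T-Co arrays and 199.5, 148 and 150.3 on the T-TSU arrays. There the T-Co arrays lay above all NT-Co arrays, and it rose by 1.12 ± 0.27 (adjusted p = 0.0305); this call was lost without T-Co replicate 13, at 0.85 (adjusted p = 0.104), and without NT-Co replicate 10 or 11 (adjusted p = 0.0859 and 0.112). It was also lost with no filter, without the intensity trend and with only the 2 groups compared (adjusted p = 0.0565, 0.0614 and 0.0551). The same held without T-Co replicate 13 and T-TSU replicate 2 together (limma adjusted p = 0.109). Lst1, a small leukocyte transmembrane protein, measured 244, 332 and 304 on the NT-Co arrays, 214, 388 and 348 on the T-Co arrays and 181, 220.4 and 206 on the T-TSU arrays. All T-TSU arrays were below the NT-Co arrays, and 2 of the 3 T-Co arrays were above all T-TSU arrays, with differences of -0.51 ± 0.23 (adjusted p = 0.288) and -0.59 ± 0.23 (adjusted p = 0.399).

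The remaining myeloid genes had overlapping groups in every comparison. The leukocyte integrin chains Itgb2 and Itgax, which pair to form adhesion receptors, ranged over 85.0 to 105 for NT-Co, 85.2 to 122 for T-Co and 25.7 to 109.9 for T-TSU for Itgb2, and over 17.3 to 96.9 for NT-Co, 7.35 to 53.1 for T-Co and 51.2 to 94.0 for T-TSU for Itgax. Itgam, the chain of the complement receptor CR3, was dim, at 3.11 to 21.5 for NT-Co, 18.6 to 66.4 for T-Co and 5.41 to 48.2 for T-TSU, and was not tested. Ptprc, the pan-leukocyte phosphatase CD45, ranged over 195 to 284 for NT-Co, 217 to 267 for T-Co and 173 to 232 for T-TSU. The membrane subunits of the phagocyte NADPH oxidase were Cybb, with 57.4 to 62.2 for NT-Co, 60.1 to 117 for T-Co and 47.9 to 104 for T-TSU, and Cyba, with 133 to 218 for NT-Co, 133 to 271 for T-Co and 100.3 to 134 for T-TSU. Slc11a1, the phagosomal metal transporter NRAMP1, ranged over 170.5 to 199.6 for NT-Co, 185 to 249.7 for T-Co and 131 to 208 for T-TSU. Among these, Ptprc, the marker common to all leukocytes, had differences of 0.05 ± 0.20 for T-Co against NT-Co and -0.27 ± 0.20 for T-TSU against T-Co.

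The mean of the listed genes on each array, as log2 value minus the NT-Co mean, shows how far single arrays carried these differences. Over the 9 resident genes it was -0.25, 0.41 and -0.16 for NT-Co, 0.42, 0.67 and 1.35 for T-Co and -0.97, 0.43 and -0.12 for T-TSU. The means of NT-Co replicate 10, T-Co replicate 9 and T-TSU replicate 12 were thus alike. Their medians over the same genes were 0.44, 0.43 and 0.17. T-TSU replicate 2 lay apart from the other T-TSU arrays. Over the 24 myeloid genes it was -0.09, 0.19 and -0.10 for NT-Co, 0.14, 0.17 and 0.42 for T-Co and -0.54, 0.20 and -0.11 for T-TSU. T-Co replicate 13 and T-TSU replicate 2 were again the highest and the lowest, with smaller distances.

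**Figure D5:**
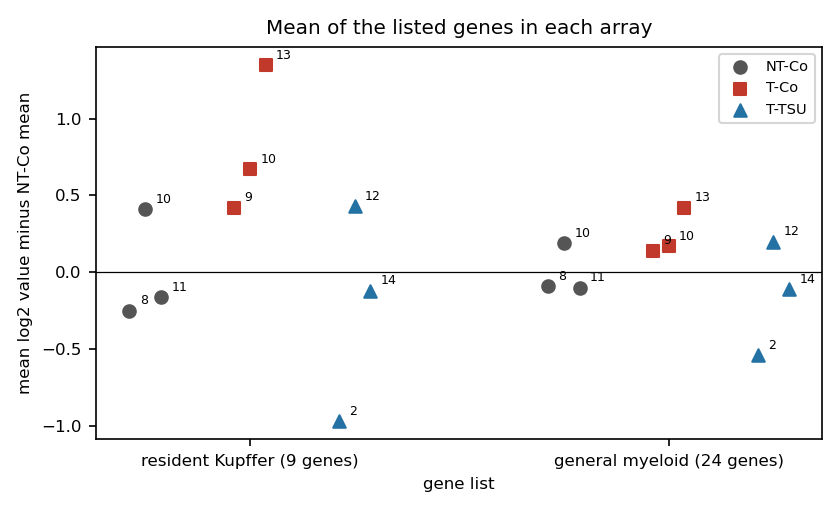
Mean over the 9 resident Kupffer genes and over the 24 general myeloid genes on each array, as log2 value minus the NT-Co mean, with replicate numbers beside the points. In the resident genes the T-Co arrays run from 0.42 to 1.35 and the T-TSU arrays from -0.97 to 0.43.

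Other genes of the Kupffer cell and of the pathways above were read from lists of their own. Their counts and medians are read beside those of all genes: the median of all genes was -0.01 for T-Co against NT-Co and 0 in both comparisons of T-TSU, first with T-Co and then with NT-Co. The shares at an unadjusted p under 0.05 were 10.6% higher and 11.3% lower, 5.71% and 5.75%, and 7.98% and 8.52% in that order. Of 15 further Kupffer identity genes and regulators, 14 were measured and tested, and 1 was called: Id3, a regulator of Kupffer cell development that other liver cells also express. Id3 measured 1026 ± 311 for NT-Co, 258 ± 49.99 for T-Co and 381 ± 21.3 for T-TSU (mean ± SD). It fell in T-Co and in T-TSU, with differences from NT-Co of -1.93 ± 0.23 (adjusted p = 0.000902) and -1.36 ± 0.23 (adjusted p = 0.0061). Both calls held under all 20 alternatives, and the direction in T-Co was opposite to that of the 9 resident genes. In T-Co 11 of the 14 lay above 0, and 4 were higher than in NT-Co at an unadjusted p under 0.05: Clec1b, Hmox1, Il18bp and Cfp, the gene of the complement protein properdin, the last at 0.90 ± 0.39 (adjusted p = 0.2). In T-TSU 11 of the 14 lay below T-Co, and 5 were lower at that level, Folr2, Fcna, Clec1b, Il18bp and Cfp, from -0.60 ± 0.21 (adjusted p = 0.346) to -1.41 ± 0.39 (adjusted p = 0.225), with 1, Id3, higher. The same 5 of 14 had T-TSU arrays wholly below the T-Co arrays, where 7.03% of all genes did. The list medians were 0.34 for T-Co against NT-Co, -0.38 for T-TSU against T-Co and -0.01 for T-TSU against NT-Co. In the order of the list the next are Nr1h3, the nuclear receptor LXR alpha, with a difference of -0.16 ± 0.14 (adjusted p = 0.538) for T-Co against NT-Co, and Spic, a regulator of red pulp and iron-handling macrophages, with 0.81 ± 0.64 (adjusted p = 0.515).

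For endotoxin sensing, 10 of 14 co-receptors and adaptors of TLR4 and TLR2 were measured and 9 tested. Lbp, the plasma protein made by hepatocytes that carries endotoxin to CD14, rose from 4088 ± 531 in NT-Co to 8974 ± 2533 in T-Co, by 1.10 ± 0.25 (adjusted p = 0.0204), with 4381 ± 1623 in T-TSU; T-TSU against T-Co gave -1.06 ± 0.25 (adjusted p = 0.169). Its call in T-Co was lost without NT-Co replicate 8 or 11 or T-Co replicate 13 (limma adjusted p = 0.0659, 0.0897 and 0.0578), and without the intensity trend (adjusted p = 0.0834). None of the other 8 tested was called, and the list medians were -0.08 for T-Co against NT-Co, -0.11 for T-TSU against T-Co and -0.24 for T-TSU against NT-Co. At an unadjusted p under 0.05, Lbp and Ly86 (0.75 ± 0.27, adjusted p = 0.117) were higher in T-Co than in NT-Co. Tirap (-0.58 ± 0.18, adjusted p = 0.0808) and Irak1 (-1.12 ± 0.43, adjusted p = 0.147) were lower. The shares of all genes were 10.6% and 11.3%. T-TSU arrays lay wholly below T-Co in 4 of 10 and wholly below NT-Co in 4 of 10, against 7.03% and 10.5% of all genes. MD-2, encoded by Ly96, differed by -0.20 ± 0.26 (adjusted p = 0.705) in T-Co against NT-Co, and Cd180, a TLR4 relative, by 0.34 ± 0.46 (adjusted p = 0.729).

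All 15 listed lysosomal and secreted macrophage products were measured and 11 tested. Grn, the lysosomal growth factor progranulin, rose from 3008 ± 244 in NT-Co to 4502 ± 533 in T-Co, by 0.58 ± 0.14 (adjusted p = 0.0348), with 3635 ± 647 in T-TSU. This call was lost without any one of NT-Co replicates 8, 10 and 11 and T-Co replicates 10 and 13 (limma adjusted p from 0.0656 to 0.108), without T-Co replicate 13 and T-TSU replicate 2 together, without the intensity trend and with the mean of all its probe sets (adjusted p = 0.1, 0.11 and 0.0947). The lysozyme genes Lyz1 and Lyz2, near-identical copies whose probe sets may share signal, differed by -0.76 ± 0.23 (adjusted p = 0.274) and -0.80 ± 0.26 (adjusted p = 0.324) in T-TSU against T-Co. At an unadjusted p under 0.05, 5 of 11 were lower in T-TSU than in T-Co, against 5.75% of all genes, and 0 higher. These were Lyz1, Lyz2, Ctss, Lgmn and Grn. In T-Co against NT-Co, 3 of 11 were higher at that level, Ctss, Lgmn and Grn, against 10.6% of all genes, and 0 lower. The list medians were 0.14 for T-Co against NT-Co, -0.20 for T-TSU against T-Co and -0.01 for T-TSU against NT-Co.

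The remaining pathway lists held 0 calls by limma in the 3 comparisons. Of 17 Fc receptor and DAP12 signalling partners, 15 were measured and 12 tested; at an unadjusted p under 0.05, Fcgr4, an IgG receptor, was higher in T-Co than in NT-Co, at 0.89 ± 0.36 (adjusted p = 0.167), and Pirb, an inhibitory receptor, lower in T-TSU than in T-Co, at -1.66 ± 0.69 (adjusted p = 0.419). Its first measured member, the kinase Syk, differed by 0.06 ± 0.59 (adjusted p = 0.967) and -0.88 ± 0.59 (adjusted p = 0.652) in these comparisons, and the list medians were 0.11 for T-Co against NT-Co, -0.20 for T-TSU against T-Co and -0.03 for T-TSU against NT-Co. Of 4 further oxidase subunits, 3 were measured and tested, with 0 at an unadjusted p under 0.05 and medians of 0.10 for T-Co against NT-Co, -0.06 for T-TSU against T-Co and -0.03 for T-TSU against NT-Co. Ncf1, the cytosolic subunit p47phox, differed by 0.10 ± 0.47 (adjusted p = 0.931) in T-Co against NT-Co. All 5 genes of the CSF1 receptor ligands and related receptors were measured and 4 tested, with 0 at an unadjusted p under 0.05. Csf1, the ligand itself, differed by -0.18 ± 0.30 (adjusted p = 0.789) in T-Co against NT-Co and by 0.58 ± 0.30 (adjusted p = 0.528) in T-TSU against T-Co, and Il34, the other ligand, by 0.08 ± 0.34 (adjusted p = 0.931) and 0.26 ± 0.34 (adjusted p = 0.838).

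Markers of other liver cells moved in the same samples. The summed intensity of 14 of 14 endothelial markers was 3148 to 4111 for NT-Co, 3759 to 6119.9 for T-Co and 2692 to 3979 for T-TSU, and Pecam1, the junction protein CD31, which macrophages also carry, was called in T-Co against NT-Co at 1.89 ± 0.50 (adjusted p = 0.0425). The Pecam1 call was lost under 11 of 19 alternatives (adjusted p up to 0.144), among them no filter, no intensity trend, only the 2 groups compared and 7 of the 9 arrays left out in turn. The summed intensity of 11 of 13 neutrophil markers was 2642 to 5658 for NT-Co, 9049.9 to 25342 for T-Co and 2096 to 11829.6 for T-TSU, with 0 called by limma. S100a8, S100a9 and Lcn2 were the 3 of 6 tested that were higher in T-Co than in NT-Co at an unadjusted p under 0.05, by 1.59 ± 0.45 (adjusted p = 0.0563), 1.23 ± 0.38 (adjusted p = 0.0728) and 2.08 ± 0.58 (adjusted p = 0.0521), and the same 3 were lower in T-TSU than in T-Co at that level. S100a8 and S100a9 encode calprotectin of neutrophils and monocytes, and Lcn2 is also made by hepatocytes. Lcn2, with means of 3098 for NT-Co, 13714 for T-Co and 5342 for T-TSU, made up most of the neutrophil sum. In T-Co against NT-Co 8 of the 11 neutrophil markers lay above 0. The 3 below 0 were Mpo, Elane and Cxcr2, at -0.79, -0.30 and -0.39. The 10 of 12 measured hepatocyte markers summed to 278824 to 302972 for NT-Co, 348916 to 351811 for T-Co and 280992 to 309819.6 for T-TSU, and 4 of them, Ahsg, Tat, Cps1 and Arg1, were called higher in T-Co, which is 40% of the 10 where 3.56% of all genes were. All 4 calls were lost without the intensity trend. Those of Ahsg and Cps1 were lost with no filter too, that of Ahsg without NT-Co replicate 8, and that of Tat without any one of the NT-Co arrays and without T-Co replicate 9 or 13 (adjusted p up to 0.0957 over the 4 genes). The neutrophil and hepatocyte sums of every T-Co array were above those of every NT-Co array, while the endothelial sums overlapped. In that comparison 12 of 14 endothelial markers lay above 0, with a median of 0.33, as did 10 of 10 hepatocyte markers, with a median of 0.26. T-Co arrays lay wholly above the NT-Co arrays in 4 endothelial and 6 hepatocyte markers, against 11.6% of all genes. In T-TSU against T-Co, where most macrophage genes lay below 0, so did 10 of 10 hepatocyte markers, with a median of -0.24, and 12 of 14 endothelial markers, with a median of -0.29. At an unadjusted p under 0.05, 7 of 10 hepatocyte and 2 of 14 endothelial markers were lower, against 5.75% of all genes. T-TSU arrays lay wholly below the T-Co arrays in 9 hepatocyte and 4 endothelial markers, against 7.03% of all genes. The hepatocyte sum of every T-TSU array was below that of every T-Co array, while the neutrophil and endothelial sums overlapped. The part of these cells in the differences of the macrophage genes was not tested.

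Markers of blood monocytes, the cells from which recruited macrophages arise, summed to 710.2 to 918 for NT-Co, 784 to 919 for T-Co and 824 to 984 for T-TSU over 7 of 11 genes, with 0 of 3 tested genes called by limma in any comparison and 0 at an unadjusted p under 0.05. Sums were 194 to 373 for NT-Co, 232 to 275 for T-Co and 194 to 304 for T-TSU for 7 of 9 dendritic cell markers, 321 to 499 for NT-Co, 381 to 493 for T-Co and 340.3 to 426 for T-TSU for 8 of 9 B cell markers and 337 to 588 for NT-Co, 456 to 493 for T-Co and 349.7 to 705 for T-TSU for 12 of 13 T and NK cell markers. These 3 lists held 0 calls by limma, and 1 gene at an unadjusted p under 0.05, Cd79b of the B cell receptor, at 1.38 ± 0.45 (adjusted p = 0.0919) for T-Co against NT-Co. No marker was listed at 0 on any array, and S100a4, Ccr7 and Pax5 were below the filter intensity on every array. Stellate cell and fibroblast markers summed to 8524 to 9439 for NT-Co, 7309 to 7909.9 for T-Co and 7700.2 to 9176 for T-TSU over 11 of 11 genes.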

How the data were processed

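Liver RNA of 9 samples, 3 per group, was measured on 9 arrays, and groups and replicate numbers were taken from the sample titles. Per the labels' protocols, 5 µg of total RNA per sample went into biotin-labelled cRNA. The deposited values are linear intensities, 1 per probe set and sample; the authors' summarisation and scaling software was not given in the sources used here. With 2% trimmed from each end, every array averaged 500.3. Of 22690 probe sets, 64 were controls and left out; the platform annotation gave 1 gene for 20380, several for 691 and none for 1555. Analysis used log2(intensity + 7.92), where the pseudocount is the 10th percentile of all values, with no further normalization. The 6788 probe sets with a mean log2 value under the 30th percentile (about 36.2) were left out, leaving 15838. A group-means model of all 9 arrays (6 residual degrees of freedom) was fitted with limma 3.58.1 in R 4.3.3, with eBayes and its intensity trend, two-sided tests and p-values adjusted by Benjamini-Hochberg over the whole table, at a threshold of 0.05. The number of arrays limits the precision. No columns held identical values. The pipeline was tested on simulated data.

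A difference is given with its test where a gene's unadjusted p was under 0.05 or its groups did not overlap; genes of the 15 other lists are named where called, otherwise up to 3 per list in list order. Genes named beyond this rule, and the other differences printed, were chosen after their values were seen. The 34 genes, the lists and the tests were chosen with earlier results of these data known. Counts and medians of a list carry no test and are read beside those of all genes, 1 probe set per gene (9225 tested of 12393). Alternatives were other pseudocounts, filters, normalizations and variance models, only the 2 groups compared, the mean of all probe sets of a gene, and each array left out; leaving out 2 arrays together was added after seeing the data.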

Additional observations from a re-analysis of the deposited data

How the results depend on the processing

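No called result changed direction under any alternative run; of the medians, which carry no test, the resident median for T-TSU against NT-Co turned from -0.33 to 0.10 without T-TSU replicate 2, alone or with T-Co replicate 13. Left-out arrays moved the T-Co against NT-Co count of 1036 probe sets to 445 to 1016, and leaving out the intensity trend moved it to 473; 1 macrophage gene was called, 0 without the trend, 2 with only the 2 groups compared and 0 to 2 with 1 array left out. For T-TSU against T-Co, 8 probe sets were called: 25 with a pseudocount of 32, 14 with a robust trend, 1 after quantile normalization, and 0 with no filter, with arrays centred on their median, without the trend, with only the 2 groups compared and without T-Co replicate 13 and T-TSU replicate 2 together. With 1 array left out it was 0 to 58, and the count of 17 genes lower at an unadjusted p under 0.05 was 9 to 21, and 2 without both arrays. The medians of -1.04 and -0.46 for resident and myeloid genes were -0.40 and -0.20 without both arrays. Such shrinkage tends to follow from leaving out arrays picked as the extremes of these genes. The medians ran from -1.29 to -0.67 and -0.64 to -0.26 with 1 left out. For T-Co against NT-Co these ranges were 0.48 to 1.04 and 0.06 to 0.36, and for T-TSU against NT-Co -0.63 to 0.10 and -0.34 to -0.05. The T-TSU against NT-Co count of 609 was 265 without the trend and 287 to 793 with 1 array left out, and 1 macrophage gene, Cd163, was called without both arrays instead of 0. The cause of these changes was not tested. The mean of all probe sets of a gene gives no count of probe sets. With 3 arrays per group precision is limited, and genes near the filter intensity of 36.2, such as Marco, had wide intervals. No paired analysis was possible because the groups compared share fewer than 2 replicate numbers: NT-Co and T-Co share only number 10.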

Other observations

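Outside the macrophage lists, genes called in T-Co against NT-Co by limma included the erythroid gene Alas2, which encodes the first enzyme of haem synthesis in red cell precursors. It measured 2136 ± 215 for NT-Co, 672 ± 373 for T-Co and 1773 ± 547 for T-TSU (mean ± SD, n = 3), and fell in T-Co with a log2 difference of -1.84 ± 0.38 (adjusted p = 0.0137). Col3a1, a collagen of stellate cells and fibroblasts, measured 687 ± 129.7 for NT-Co, 331 ± 52.4 for T-Co and 511 ± 92.2 for T-TSU, and fell with a difference of -1.03 ± 0.20 (adjusted p = 0.0101). Neither was called in T-TSU against T-Co, at 1.52 ± 0.38 (adjusted p = 0.191) and 0.61 ± 0.20 (adjusted p = 0.318). The Alas2 call was lost without NT-Co replicate 11 and without the intensity trend (adjusted p = 0.0585 and 0.0661) and the Col3a1 call without NT-Co replicate 8 (adjusted p = 0.0544). The other markers of these cells did not all follow them in T-Co against NT-Co. Of 4 measured red cell markers, Alas2 among them, 2 lay above 0 and 2 below, with a median of -0.02. Of 11 stellate cell and fibroblast markers, 3 lay above 0 and 8 below, with a median of -0.40.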
